A study of Caenorhabditis elegans with 139 samples.

Results

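Messenger RNA was compared between single embryos of the nematode Caenorhabditis elegans taken up to the 4-cell stage and embryos taken 10 to 30 min later, the interval of the first zygotic transcripts and the first losses of maternal ones. The earlier group held 7 embryos, 1 labelled -50 min, 1 labelled -30 min and 5 labelled 0 min relative to the 4-cell stage. The later group held 10 embryos, 1 at 10 min, 3 at 20 min and 6 at 30 min. These 17 of the 139 embryos in the time course were chosen by their labelled times alone, and no expression value entered the choice. Each library came from 1 embryo. The labels give 1 protocol for all samples: adults were grown by standard methods and cut open, the released embryos were cleaned with bleach, those with 4 cells were picked and held at 20 °C, and they were frozen before extraction with TRIzol. No strain, genotype or treatment is named in the labels, and the protocol, which starts from 4-cell embryos, does not say how those at -50 and -30 min were picked or staged. RNA was amplified and sequenced by CEL-Seq, which barcodes the RNA of a sample, amplifies it by in vitro transcription and reads the 3′ ends of transcripts.

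The oocyte of C. elegans supplies the egg with messenger RNA and protein, and RNA-binding proteins of the CCCH zinc-finger class, such as POS-1, MEX-5 and PIE-1, set where these maternal messages are translated and where the germline forms. Transcription of the embryo's own genome starts in the somatic blastomeres at about the 4-cell stage, while PIE-1 keeps it low in the germline blastomere. Known early products include the vet genes (very early transcripts), pes-10, the GATA-type factors of the endoderm and mesoderm (med-1, med-2, end-3) and T-box factors. In whole embryos, a transcript present in fewer cells and a lower amount per cell cannot be told apart.

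Depth differed widely between embryos. Counts in genes ranged from 30049 to 2206884 in the earlier embryos and from 23630 to 4557314 in the later ones, and 4 embryos held fewer than 90000. Levels are given as CPM, the counts of a gene after the gene counts of every embryo were scaled to 1 common total. In those 4 embryos 1 count equals 22.9 to 42.3 CPM, so a gene listed at 0 there may be present at such a level. Genes with at least 1 count numbered 4351 to 8996 in the earlier and 4025 to 10429 in the later group, and 23.8% to 59.0% of reads were not aligned. The labels name no batch. The later title numbers, however, fall into 4 series within each of which the labelled times run upward, called blocks 2 to 5 here. The title numbers before them, whose labelled times follow no order, are called block 1. Block 1 holds 1 later embryo and no earlier one, block 2 holds 2 of each, blocks 3 and 4 each hold 1 earlier and 2 later embryos, and block 5 holds 3 of each. The 3 embryos at 30 min in blocks 1 and 2 held the highest shares of yolk protein and adult intestine transcripts, with values given beside the results they touch. Oocyte and early embryo markers pos-1, mex-5, oma-1, pie-1, nos-2 and mex-3 had counts in 7 of 7 earlier and 10 of 10 later embryos. A count alone does not tell the stage, since pos-1 also had counts in all 30 embryos at 200 to 290 min. Of 4 markers of later embryos, rab-3 had no count in any of the 17, unc-54 had counts in 4 of 7 and 7 of 10 embryos, dpy-7 in 5 and 5, and sqt-3 in 7 and 8, at up to 449 CPM in the earlier and 1792 CPM in the later group.

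A small set of genes rose between the groups. Of 5446 genes tested, 10 were higher in the embryos at 10 to 30 min (0.184%) and 0 were lower (0%), where a call is a Benjamini-Hochberg adjusted p under 0.05 in edgeR's quasi-likelihood test together with a fold of at least 2. The 10 genes were vet-6, a very early transcript, sgnh-1, pap-2, pap-3, Y5H2B.3, Y73C8C.8, K08H2.2, F56A8.8, Y71A12B.2 and Y71A12B.3. At an unadjusted p under 0.05, 210 genes were higher (3.86%) and 239 were lower (4.39%). With DESeq2, 20 genes were called higher and 4 lower. The median log2 fold change over all genes tested was 0.03, with quartiles of -0.31 and 0.33, and positive values are higher in the later embryos throughout.

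The summed level of the 10 genes was 0.741 and 3.07 CPM in the 2 embryos at 0 min of block 2, 230 CPM in that of block 3, 47.1 CPM in that of block 4 and 33.3 CPM in that of block 5. It was 19.5 CPM at -50 min and 22.4 CPM at -30 min. Among the later embryos it was 149 CPM at 10 min. The 3 embryos at 20 min held 553, 362 and 405 CPM. At 30 min it was 1635 CPM in block 1, 1285 and 974 CPM in block 2, 435 CPM in block 3, 711 CPM in block 4 and 1608 CPM in block 5. The later embryos were high and the earlier ones low, except that the earlier embryo of block 3, at 230 CPM, lay above the later embryo at 10 min. These sums describe the genes the test picked and are no further test.

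**Figure D1:**
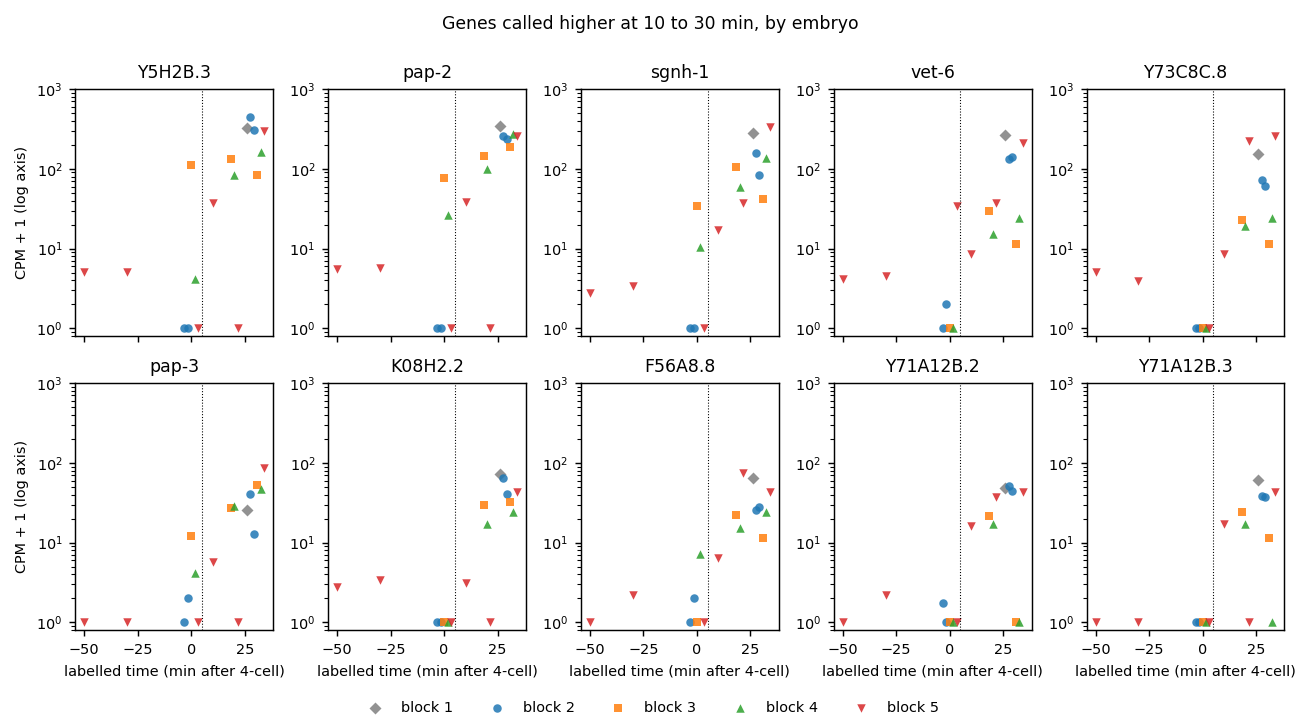
Level of each of the 10 called genes in CPM + 1 (log axis) against labelled time in min, 1 point per embryo, with colour and shape for the block of title numbers, points of equal time set slightly apart, and a dotted line between the groups. Y73C8C.8 is the gene whose groups do not overlap, and points on the lowest line are embryos with no count.

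Y73C8C.8, on chromosome V, was the called gene whose groups did not overlap. It had no count in 5 of the 7 earlier embryos and 4.08 and 2.95 CPM in those at -50 and -30 min. The later embryos ranged from 7.63 CPM at 10 min through a median of 41.3 to 254 CPM in the embryo of block 5 at 30 min. The means were 1.00 ± 1.75 CPM (SD, n = 7) and 84.0 ± 92.1 CPM (SD, n = 10), a log2 fold change of 5.38 ± 0.96 (SE, adjusted p = 0.0119). Over all tested genes, 5 (0.0918%) had groups that did not overlap, and the others were ref-1 and T14G8.3, higher in the later embryos, and mrpl-34 and gcn-1, lower in them, none of them called. No role is given here for Y73C8C.8 or for the other called genes known by a sequence name.

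The very early transcript vet-6, on chromosome I, had a median of 1.02 CPM in the earlier embryos and 32.7 CPM in the later ones. Its earlier values ran from 0 to 33.3 CPM, and the highest, in the embryo of block 5 at 0 min, rests on 1 count. Its later values ran from 7.63 CPM at 10 min to 264 CPM in the embryo of block 1, and 5 of the 10 lay above all earlier ones. The means were 5.86 ± 12.2 CPM (SD, n = 7) and 86.7 ± 93.7 CPM (SD, n = 10), with a log2 fold change of 5.47 ± 0.99 (SE, adjusted p = 0.0121).

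For sgnh-1, on chromosome IV, the earlier embryos lay between 0 and 32.9 CPM with a median of 1.81, and the later ones between 16.1 and 339 CPM with a median of 94.1. In 9 of the 10 later embryos it was above all earlier ones, the exception being the embryo at 10 min. Its means were 6.64 ± 12.0 CPM (SD, n = 7) and 126 ± 108 CPM (SD, n = 10), with a log2 fold change of 5.50 ± 0.91 (SE, adjusted p = 0.0057).

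Both pap-2 and Y5H2B.3 had already been counted in the embryo of block 3 at 0 min. The level of pap-2, on chromosome II, was 76.7 CPM there, 25.11 CPM in block 4, 4.53 and 4.71 CPM at -50 and -30 min, and 0 in the other 3 earlier embryos. Its later values ran from 0, in the embryo of block 5 at 20 min with 27138 gene counts, through a median of 209.8 to 345.5 CPM. The means were 15.9 ± 28.3 CPM (SD, n = 7) and 183 ± 111 CPM (SD, n = 10), with a log2 fold change of 4.56 ± 0.89 (SE, adjusted p = 0.0250). Y5H2B.3, on chromosome V, stood at 109.5 CPM in that earlier embryo of block 3, from 10 counts, and at no more than 4.12 CPM in the other 6. Its means were 17.3 ± 40.7 CPM (SD, n = 7) and 187 ± 148 CPM (SD, n = 10), and 6 later embryos lay above all earlier ones (log2 fold change 4.98 ± 1.02 SE, adjusted p = 0.0329). Within block 3 its mean was 107.8 CPM in the later embryos against 109.5 CPM in the earlier one, so that block showed no rise.

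The other 5 called genes had means of 24.2 to 31.8 CPM in the later embryos. They fall outside the naming rule, which asks for 50 CPM, and are named after their values were seen. Y71A12B.3 had no count in any of the 7 earlier embryos and counts in 8 of the 10 later ones, with a median of 19.7 and a highest value of 60.2 CPM. With the counts of each group pooled and the earlier group set to a floor of 3 counts, it was at least 59.9-fold higher in the later embryos. In this pooled ratio the deeper embryos weigh more, and the ratio itself was not tested. The log2 fold change fitted by edgeR was 7.96 ± 1.19 (SE, adjusted p = 0.0057). Y71A12B.2, whose sequence name places it beside Y71A12B.3 on chromosome I, had means of 0.274 ± 0.485 CPM (SD, n = 7) and 27.2 ± 19.3 CPM (SD, n = 10), with a log2 fold change of 5.78 ± 0.96 (SE, adjusted p = 0.0057). Their levels ran side by side, 47.8 and 60.2 CPM in block 1 and 15.3 and 16.1 CPM at 10 min for Y71A12B.2 and Y71A12B.3, and how reads shared by similar genes were counted is not stated in the labels. The means of K08H2.2, on the X chromosome, were 0.596 ± 1.03 and 31.7 ± 23.4 CPM (adjusted p = 0.0121). Those of pap-3, on chromosome II, were 2.16 ± 4.05 and 31.8 ± 25.13 CPM (adjusted p = 0.0329). Those of F56A8.8, on chromosome III, were 1.21 ± 2.29 and 30.5 ± 22.5 CPM (adjusted p = 0.0298). F56A8.8 overlaps a protein-coding gene on the other strand, and since the strand setting of the counting is not given, reads of the pair cannot be told apart. The same limit holds for sgnh-1 and memi-3, which overlap a non-coding gene on the other strand, and, among the other genes named, for the protein-coding overlaps of end-3, pie-1, zif-1, nos-2, vit-2, bath-33, perm-2, rpl-39, mrpl-34 and T14G8.3. H04D03.4, T27E9.6, chs-1 and gcn-1 overlap a gene on their own strand.

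Within blocks the direction was the same for 9 of the 10 genes in all 4 blocks that hold both groups, Y5H2B.3 being the exception. For sgnh-1 the block means rose from 0 to 120 CPM in block 2, from 32.9 to 73.7 in block 3, from 9.42 to 98.0 in block 4 and from 1.39 to 130.5 in block 5. With block as a term in the fit, 7 of the 10 were again called, and pap-3, F56A8.8 and K08H2.2 were not (adjusted p = 0.0937, 0.108 and 0.160). The calls depended on which embryos entered. No gene was called in the 6 embryos of block 5 alone, without block 2, without block 5, with the embryos at 0 min alone as the earlier group, or in the 13 embryos with at least 90000 gene counts. In block 5 alone, however, only vet-6, sgnh-1 and Y71A12B.2 of the 10 had enough counts to be tested. Without block 2 only sgnh-1, pap-2 and Y5H2B.3 had. The log2 fold changes of the 10 genes stayed between 3.08 and 9.09 in every alternative that tested them, and none changed sign. The 10 genes were picked for their rise in these same embryos. Their direction within blocks and over the alternatives is therefore no further test.

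**Figure D2:**
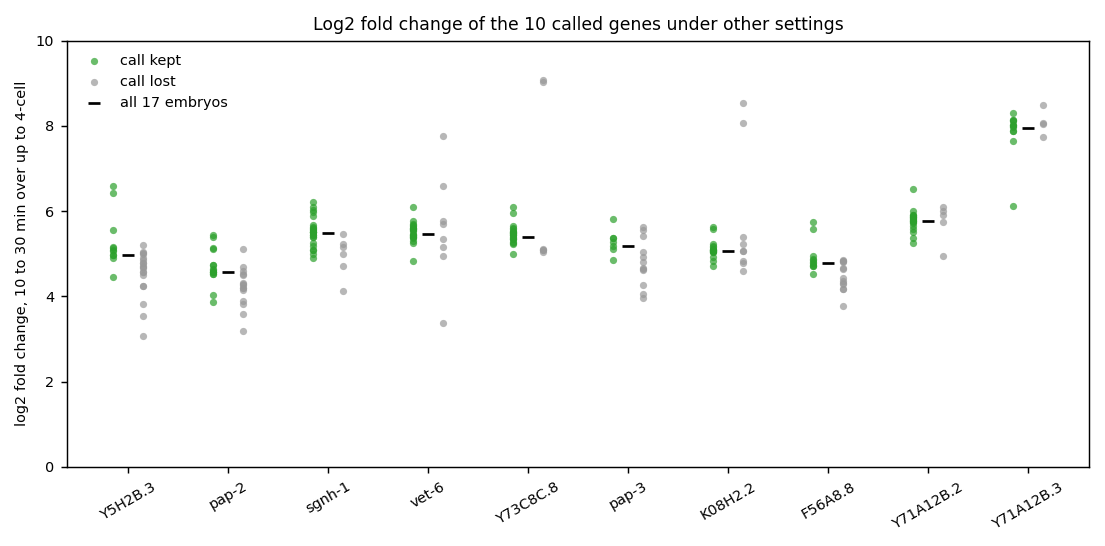
Log2 fold change (10 to 30 min over up to 4-cell) of the 10 called genes under each alternative setting that tested the gene, leaving out block 1 and leaving out its 1 embryo being the same fit and drawn once, with green points where the call was kept, grey points where it was lost and a black bar for all 17 embryos. All points lie above 3, 157 are green and 97 grey, and a gene was tested in 16 (Y71A12B.3) to 30 of the 31 alternative fits.

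In the other 122 embryos of the course, the means of the 10 genes were highest at 40 to 100 min and lower afterwards. This is a description without a test. The mean of sgnh-1 was 633 ± 173 CPM (SD, n = 3) at 40 to 60 min, 240 ± 202 CPM (SD, n = 8) at 70 to 100 min and 4.46 ± 8.02 CPM (SD, n = 13) at 110 to 190 min. Y5H2B.3 went from 501 CPM at 40 to 60 min to 156 and then 1.11 CPM in the same windows, and Y71A12B.3 from 212 to 52.7 and 8.98 CPM. The highest window was 40 to 60 min for 8 genes. For vet-6 and F56A8.8 it was 70 to 100 min, at 723 ± 429 and 246 ± 195 CPM (SD, n = 8), and vet-6 still averaged 408 CPM at 110 to 190 min. From 200 to 290 min, in 30 embryos, means of the genes shown here were 1.05 CPM for vet-6, 0.927 CPM for sgnh-1 and 1.96 CPM for Y5H2B.3. The exception was pap-3, at 59.1 CPM at 40 to 60 min and 0.524 CPM at 200 to 290 min, which had 169 CPM in 1 of the 18 embryos of the window after that, above every earlier value, and 0 in the other 17.

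**Figure D3:**
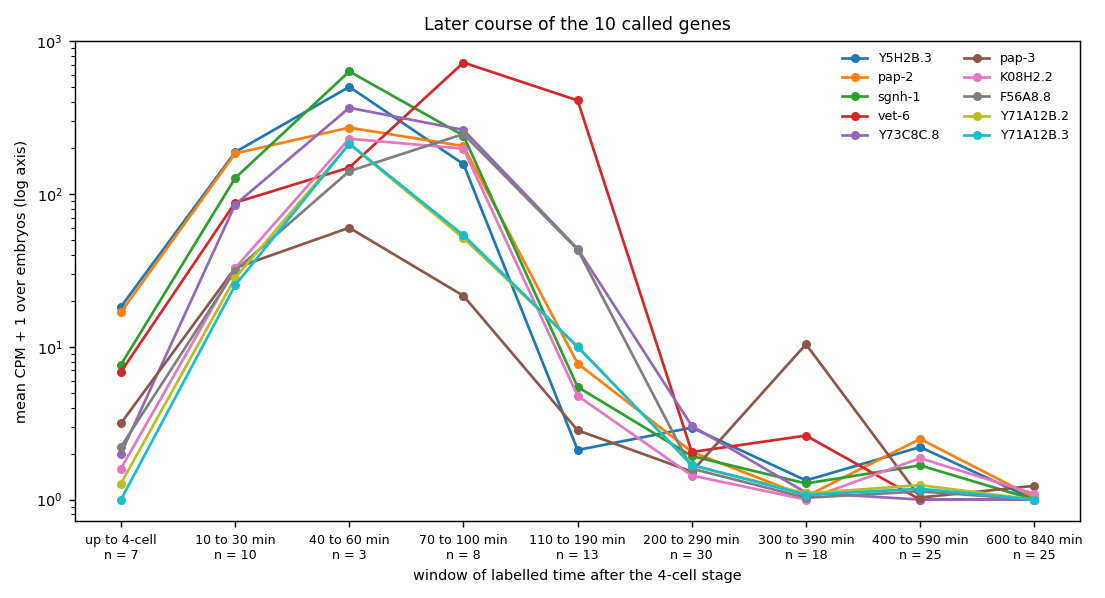
Mean CPM + 1 (log axis) of the 10 called genes over windows of labelled time after the 4-cell stage, with the number of embryos under each window. Means are highest at 40 to 60 min for 8 genes and at 70 to 100 min for vet-6 and F56A8.8.

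Few genes absent from all earlier libraries were counted in most later ones. Of 9892 genes with no count in the 7 earlier embryos, 2317 had a count in at least 1 later embryo and 29 in at least 5. After Y71A12B.3, with 8 later embryos, came fbxb-13, an F-box gene, tbx-39, a T-box factor, Y106G6H.9 and H04D03.4, each with 7. With 6 followed fbxb-33, also an F-box gene, bath-33, of the family with BTB and MATH domains, sdz-26, named as a SKN-1-dependent zygotic transcript, and C49F5.7, and F57G9.3 had 5. For tbx-39 the later values ran from 0 through a median of 4.86 to 43.2 CPM in block 1, and its pooled counts were at least 17.3-fold above the floor of 3 counts over the earlier group. The same pooled lower bound was 20.3-fold for sdz-26, 17.7-fold for fbxb-33 and 4.77-fold for fbxb-13. The bounds cover counting error only, since reads were amplified and the labels name no molecular identifiers. No gene went the other way, with counts in at least 4 earlier and no later embryo. The directions cannot be weighed against each other, since depth and group size differ. A lost gene had to be absent from 10 later embryos, among them the deepest library, and a gained one from 7 earlier embryos. The genes with bounds were picked for having no earlier count and counts in the most later embryos. Their bounds are therefore no further test.

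The early zygotic genes that could be tested lay mostly above 0, with 1 call. Of 43 list members with a line in the count table, 17 had enough counts to be tested, 1 of them rose (vet-6) and 0 fell, 9 were higher and 1 was lower at an unadjusted p under 0.05, and the median log2 fold change was 1.89 against 0.03 for all genes tested. Over all genes tested 0.184% rose, and 3.86% were higher and 4.39% lower at an unadjusted p under 0.05. A member near 0 in the earlier embryos could be tested only through its counts in the later ones. The median and the numbers of members on each side are in part set by that filter and are no test of the list. The summed share of gene counts of the list was 0.0464% to 0.293% in the earlier and 0.0667% to 0.766% in the later embryos. The groups overlapped, since the embryo of block 5 at 0 min held 0.293%, more than 7 of the later embryos. The median was 1.81 in block 5 alone and 1.35 without blocks 1 and 2. In that shallow library of 30049 counts vet-1 stood at 699 CPM and pes-10 at 266 CPM, from 8 counts.

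For pes-10, a classic marker of early zygotic transcription on chromosome II, the earlier embryos had 0, 0, 21.9, 3.14, 1.81, 5.89 and 266 CPM, in the order of blocks 2 to 5. The later embryos ranged from 20.7 to 503 CPM with a median of 80.9. The means were 42.7 ± 98.9 CPM (SD, n = 7) and 134 ± 149 CPM (SD, n = 10), and the log2 fold change of 4.37 ± 1.22 (SE) missed the threshold (adjusted p = 0.301). Without the embryo of block 5 at 0 min, a setting chosen after seeing the data, it was 5.78 (adjusted p = 0.0116). Leaving out any other single embryo gave an adjusted p of 0.187 to 0.79. The log2 fold change was 4.06 with block as a term (adjusted p = 0.252) and 2.18 with DESeq2 (adjusted p = 0.541). Y46G5A.28, whose sequence name follows that of pes-10 (Y46G5A.27), had a log2 fold change of 4.38 (adjusted p = 0.301).

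Several other genes were higher in the later embryos without a call. The bHLH factor ref-1, a target of Notch signalling, ran from 0 to 31.4 CPM in the earlier and from 34.2 to 221 CPM in the later embryos, so the groups did not overlap, and its log2 fold change was 2.13 ± 0.49 (SE, adjusted p = 0.106). For vet-1 the means were 132 ± 252 CPM (SD, n = 7) and 976 ± 1498 CPM (SD, n = 10), with 4878 CPM in block 1 (log2 fold change 4.03, adjusted p = 0.383). The means of vet-2 were 41.6 and 118 CPM (adjusted p = 0.438) and those of tbx-33, a T-box factor, 10.3 and 61.5 CPM (adjusted p = 0.358). T27E9.6, at means of 2.01 and 30.9 CPM, had a log2 fold change of 5.49 (adjusted p = 0.0717), and sdz-21, another gene named for dependence on SKN-1, one of 4.76 (adjusted p = 0.118). The zinc-finger genes dct-13 and ccch-2 had log2 fold changes of 4.10 and 3.80 (adjusted p = 0.138 and 0.261). All genes of this paragraph were picked after their values were seen.

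Endoderm and mesoderm regulators were at the limit of detection. The GATA-type factors med-1 and med-2 act at the top of the endomesoderm network. They had 1 and 3 counts in all over the earlier embryos and 88 and 56 over the later ones. The endoderm GATA factor end-3 had 1 and 101. These sums are not scaled for depth, and the later group held more embryos and the deepest library. For med-2 the means were 2.097 CPM in the earlier and 2.892 CPM in the later embryos, and both medians were 0. It had counts in 3 of 7 earlier and 3 of 10 later embryos, so a rise of med-2 was not shown. Counts of med-1 were present in 5 later embryos, with 9.32 CPM at 10 min, 10.5 and 20.1 CPM in the embryos at 20 min of blocks 3 and 4, 22.9 CPM at 30 min in block 4 and 3.97 CPM in 1 embryo of block 2. For end-3 the highest values were 35.8 CPM in block 2 and 21.6 CPM in block 1, both at 30 min. Those for the T-box gene tbx-37 were 10.95 CPM in the earlier group, from 1 count, and 10.8 CPM in block 1. The gene sdz-38 had means of 2.86 and 15.2 CPM and counts in 3 of 7 and 9 of 10 embryos. None of these 5 genes had enough counts to enter the test. Of the same list, lsl-1, a zinc-finger factor, lay on the other side of 0 and had means of 196 ± 73.7 and 93.8 ± 47.8 CPM (adjusted p = 0.447).

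F-box and Skp1-related genes, parts of ubiquitin ligases, gave no call. Of 104 fbxb genes 2 could be tested, none rose or fell, and the median log2 fold change was 2.61. Here too, a gene near 0 in the earlier embryos could be tested only through its counts in the later ones. That median is therefore no test of the family. The fbxb genes together took 0.00102% to 0.236% of gene counts in the earlier and 0.0170% to 0.614% in the later embryos, the highest of both groups being the shallow embryos of block 5 at 0 and 30 min. Of 16 skr genes tested 0 rose and 0 fell, 6 were higher and 0 lower at an unadjusted p under 0.05, where 3.86% of all genes were higher, with a median of 0.98. For skr-8 the means were 54.5 and 212 CPM (adjusted p = 0.358), while skr-9 had 150 and 99.8 CPM (adjusted p = 0.988), with 965 CPM in the earlier embryo of block 5 at 0 min.

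**Figure D4:**
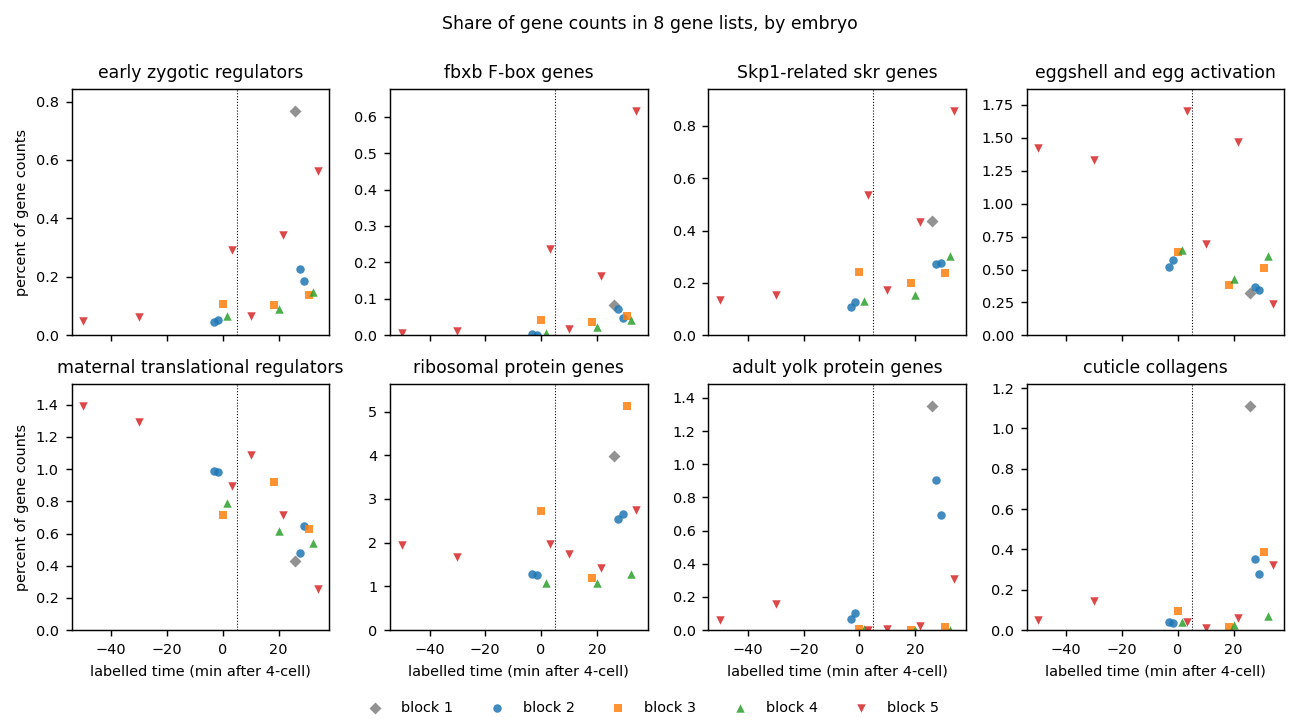
Share of gene counts in percent held by 8 gene lists against labelled time in min, 1 point per embryo, with colour and shape for the block, points of equal time set slightly apart, and a dotted line between the groups. Eggshell and translational regulator genes lie lower in most later embryos, and yolk protein genes are highest in the embryos at 30 min of blocks 1 and 2.

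No maternal transcript fell by the call rule, and the maternal lists lay below 0 on the log2 scale. Of 9 CCCH zinc-finger genes and factors of their degradation tested, 0 rose and 0 fell, with 1 higher and 1 lower at an unadjusted p under 0.05 and a median log2 fold change of -0.29. The level of pos-1 was 4559 to 14840 CPM in the earlier and 2158 to 9389 CPM in the later embryos, with means of 8002 ± 3750 CPM (SD, n = 7) and 6082 ± 2315 CPM (SD, n = 10, adjusted p = 0.866). The means of mex-5, which with mex-6 sets anterior-posterior differences in the zygote, were 1256 ± 361 and 852 ± 324 CPM (adjusted p = 0.626). Those of pie-1, the repressor of transcription in the germline, were 612 ± 289 and 497 ± 220 CPM (adjusted p = 0.917), and those of nos-2, a nanos-type translational repressor of the germline, 867 ± 341 and 535 ± 277 CPM (adjusted p = 0.789). For zif-1, whose product targets CCCH proteins for degradation in somatic cells, they were 550.5 ± 267 and 535.5 ± 245 CPM (adjusted p = 0.991). The groups of all 5 genes overlapped.

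The pair oma-1 and oma-2, CCCH genes of oocyte maturation with overlapping roles, had different values. For oma-1 the means were 580 ± 200 and 485 ± 145 CPM, a log2 fold change of -0.21 ± 0.29 (SE, adjusted p = 0.932). For oma-2 the earlier embryos had 1619, 841, 1030, 4636, 3251, 4115 and 2696 CPM in the order of blocks 2 to 5. The later ones had 282 CPM in block 1, a mean of 529 CPM over the 2 embryos of block 2, 1017 and 684 CPM in block 3, 1376 and 1193 CPM in block 4, and 2133, 258 and 423 CPM at 10, 20 and 30 min in block 5. The later mean was below the earlier one in all 4 blocks with both groups, and 4 earlier embryos lay above all later ones. With all 17 embryos the log2 fold change was -1.59 ± 0.40 (SE, adjusted p = 0.163). It was called with the 30 min embryos alone as the later group (-1.996, adjusted p = 0.0304), with DESeq2 (-1.61, adjusted p = 0.0139) and without the embryo at 10 min (-1.83, adjusted p = 0.0375). The difference between oma-1 and oma-2 itself was not tested.

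Eggshell and egg activation genes had the lowest median of the maternal lists. All 20 were tested, 0 rose and 0 fell, 1 was higher and 12 were lower at an unadjusted p under 0.05, where 4.39% of all genes were lower, and the median log2 fold change was -1.17, with -1.23 in block 5 alone and -0.93 without blocks 1 and 2. The chitin-binding proteoglycan gene cpg-2 had 3134 and 2615 CPM at -50 and -30 min, 197 to 399 CPM in the 5 embryos at 0 min and 68.8 to 591 CPM in the later embryos (log2 fold change -2.03 ± 0.54 SE, adjusted p = 0.261). Its high values were thus those of the 2 embryos before the 4-cell stage. The pseudophosphatase gene egg-5, of egg activation, lay at 54.8 to 299.5 CPM in the earlier and 20.4 to 94.4 CPM in the later embryos (-1.31 ± 0.37 SE, adjusted p = 0.301). For cbd-1, a chitin-binding component of the eggshell, the means were 1643 ± 1339 and 666 ± 457 CPM (adjusted p = 0.458), and for chs-1, the chitin synthase, 32.5 and 8.46 CPM (adjusted p = 0.558). The meiosis-to-mitosis regulators memi-1, memi-2 and memi-3 had log2 fold changes of -1.48, -1.50 and -1.33 (adjusted p = 0.476, 0.492 and 0.447), and being close paralogs they may share reads. The exceptions were perm-2 and perm-4, genes of the permeability barrier of the eggshell, with 654 and 537.5 CPM in 1 embryo of block 2 at 30 min and at most 64.4 and 113 CPM in the earlier embryos. Those higher values came from the libraries with the most yolk protein counts, whose part in them was not tested.

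Translational regulators showed the same side of 0. Of 23 tested, 0 rose and 0 fell, 0 were higher and 6 lower at an unadjusted p under 0.05, where 3.86% and 4.39% of all genes were, and the median was -0.38. In 8 of the 10 later embryos their summed share was below that of every earlier embryo (0.717% to 1.39% earlier, 0.254% to 1.09% later), the exceptions being the embryos at 10 min and at 20 min of block 3. The Pumilio-type repressor puf-11 lay at 333 to 911 CPM in the earlier and 42.3 to 527.5 CPM in the later embryos and was lower in all 4 blocks with both groups (-1.20 ± 0.34 SE, adjusted p = 0.301). Its relative puf-5 had means of 1118 ± 895 and 373 ± 285 CPM (adjusted p = 0.358), and car-1, which encodes an RNA granule protein, 1343 ± 508 and 610 ± 485 CPM (adjusted p = 0.358). The smallest adjusted p among genes with lower values was 0.138, of arx-6, a subunit of the actin-nucleating Arp2/3 complex, at 71.9 to 174 CPM in the earlier and 26.1 to 82.9 CPM in the later embryos (-1.25 ± 0.30 SE). The genes arx-6, puf-11, cpg-2 and oma-2 were the 4 called lower by DESeq2.

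**Figure D5:**
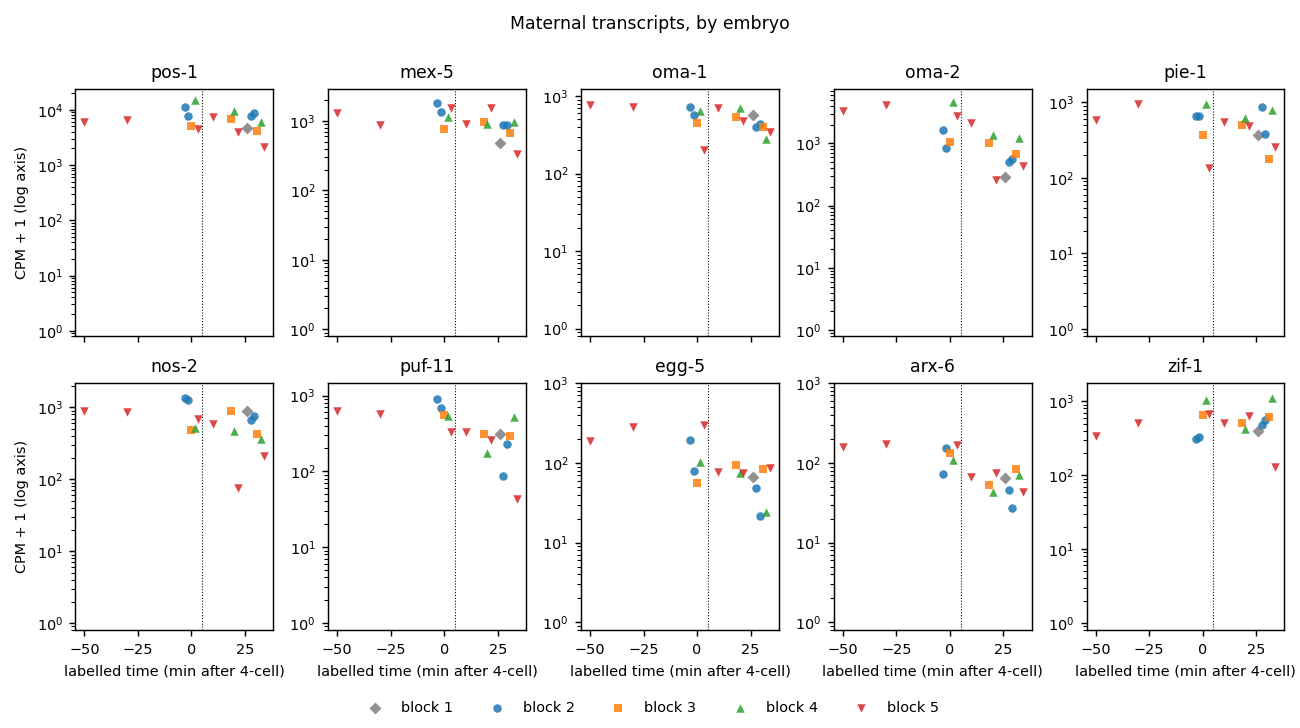
Level of 10 maternal transcripts in CPM + 1 (log axis) against labelled time in min, 1 point per embryo, with colour and shape for the block, points of equal time set slightly apart, and a dotted line between the groups. For arx-6 and puf-11, 6 of the 7 earlier embryos lie above all later ones, whereas zif-1 and pos-1 overlap broadly.

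Other maternal lists held no call. Over all genes tested, 3.86% were higher and 4.39% lower at an unadjusted p under 0.05. Of 16 fate and polarity genes 0 were higher and 2 lower at that level (median -0.25). Of 22 P granule and small RNA genes 1 and 1 were (median -0.16), and of 22 meiosis and pairing genes 0 and 3 (median -0.44). Of 32 proteasome genes 0 and 3 were (median -0.18). With block as a term the same medians were -0.07, -0.16, -0.45 and -0.19. The gene sepa-1, which acts in the autophagy of maternal granule proteins, lay above 0 at means of 30.6 and 201 CPM (log2 fold change 3.82, adjusted p = 0.358). Of the 22 P granule and small RNA genes, 6 had log2 fold changes above 0 and 16 below. Of 58 replication and mitosis genes 3 were higher and 1 lower (median 0.13), and cyb-2.1, a B-type cyclin, had means of 587 and 626 CPM (adjusted p = 1.0). Of 13 Notch and Wnt genes and 12 mitochondrially encoded genes none was on either side at that level (medians 0.15 and 0.32), and of 8 heat shock and chaperone genes 1 was higher and 3 lower (median -0.62).

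Ribosomal protein genes and genes of differentiated adult tissue were higher in part of the later embryos, without a call over all 17. Of 78 ribosomal protein genes 22 were higher and 0 lower at an unadjusted p under 0.05, with a median of 0.70, where 3.86% of all genes were higher. Their share of gene counts was 1.07% to 2.72% in the earlier embryos. It was 3.98% in block 1, 2.54% and 2.65% in block 2, 5.12% in the embryo of block 3 at 30 min and 2.74% in block 5 at 30 min, and 1.07% to 1.73% in the other 5 later embryos. All 6 yolk protein genes tested were higher at an unadjusted p under 0.05 (median 2.60), as were 8 of 14 collagens (median 2.26), 2 of 3 adult intestine genes (median 2.77) and 3 of 7 muscle and neuron genes (median 0.76), and 0 of these rose or fell. Members of these lists near 0 in the earlier embryos could again be tested only through the later ones, so the medians are no test. The yolk share was 1.35% in block 1, 0.907% and 0.697% in block 2 and 0.309% in block 5 at 30 min. It was at most 0.157% in the earlier embryos and at most 0.0258% in the other 6 later ones. Summed over 14 markers of the adult body (yolk, adult collagens, muscle and intestine), the share was 0.0131% to 0.208% in the earlier and 0.00323% to 1.83% in the later embryos, with every one of the 14 counted in at least 6 later embryos. Sperm genes summed to 0 to 82 counts in the earlier and 0 to 92 in the later embryos. In block 5 alone the medians were 0.02 for ribosomal protein genes, -0.20 for yolk, -0.99 for collagens, -1.55 for intestine and -0.23 for muscle and neuron genes, with 78, 6, 15, 2 and 4 genes tested. With block as a term the same medians were 0.49, 0.98, 0.87, 1.25 and 0.39. Without blocks 1 and 2 they were 0.19 for 77 ribosomal protein genes, 1.79 for the 2 collagens and 0.31 for the 4 muscle and neuron genes tested, and no yolk or intestine gene had enough counts. The highest shares were not all in blocks 1 and 2. Collagens held 1.11% in block 1, 0.351% and 0.277% in block 2, 0.387% in block 3 at 30 min and 0.322% in block 5 at 30 min, and muscle and neuron genes were highest, at 0.346%, in block 3 at 30 min. The part of adult transcripts in these values was not tested. The yolk gene vit-2 had means of 117 ± 127 and 591 ± 895 CPM (adjusted p = 0.566), and within block 5 its means were 152 and 243 CPM while the log2 fold change fitted to that block alone was -0.02.

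With the 6 embryos at 30 min alone set against the 7 earlier ones, 29 of 5331 genes were higher (0.544%) and 4 lower (0.075%). The 4 lower genes were oma-2, the RNA granule gene car-1, gldi-5 and B0035.15, with log2 fold changes of -1.996, -1.59, -2.22 and -1.999 (adjusted p = 0.0304, 0.0419, 0.0348 and 0.0407). For gldi-5 the means over all 17 embryos were 167 ± 113 and 64.7 ± 53.8 CPM, and for B0035.15 they were 131 ± 55.2 and 58.1 ± 49.4 CPM. Among the 29 were sgnh-1, vet-6, pap-2, K08H2.2 and Y5H2B.3, the 5 of the 10 genes above that had enough counts to be tested in this fit. The others included ref-1 (log2 fold change 2.38, adjusted p = 0.0407) and T27E9.6 (5.92, adjusted p = 0.0348). They also held 5 ribosomal protein genes (rpl-7A, rpl-9, rpl-29, rpl-39 and rps-7, log2 fold changes 1.44 to 2.23), 3 collagens (col-106, col-122 and col-184), the intestinal genes cpr-1, asp-1 and act-5, and the muscle tropomyosin lev-11. At rps-7 the later values were 808 CPM in block 1, 341 and 376 CPM in block 2 and 539 CPM in block 3 at 30 min, against 53.4 to 208 CPM in the earlier embryos. Of the 6 embryos at 30 min, 3 are those of blocks 1 and 2 with the highest yolk shares, and the part of adult transcripts in these calls was not tested. No test set the embryos at 10 and 20 min against those at 30 min.

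No difference was detected in the amount of embryo RNA relative to the added spike-in RNAs or in the number of genes detected. The log2 ratio of gene counts to spike-in counts was 8.55 ± 0.77 (SD, n = 7) in the earlier and 8.22 ± 0.58 (SD, n = 10) in the later embryos, and the difference of -0.33 had p = 0.332 in a two-sided exact permutation test over 19448 arrangements and p = 0.264 when embryos were exchanged within blocks only. After each embryo was thinned to 23630 gene counts, the depth of the shallowest, 4375 ± 306 genes (SD, n = 7) and 4460 ± 352 genes (SD, n = 10) were detected, a difference of 84.4 genes (two-sided exact permutation test, p = 0.620, and p = 0.475 within blocks). All p-values here measure the spread between embryos of a group, which also differ in labelled time and block.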

How the data were processed

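The authors deposited raw, unscaled counts of the single-embryo CEL-Seq libraries in 1 table. Its 20784 lines comprise 20687 genes, 92 added spike-ins and 5 lines that count reads outside genes. Per the submitters' processing notes Bowtie2 2.1.0, HTSeq 0.5.4p3 and CASAVA 1.8 were used. A build was not given in the sources used here. Symbols and chromosomes came from Ensembl release 115 (20083 lines matched to 1 gene). Genes held 24.4% to 68.3% of the reads of an embryo. Spike-ins and counters, which held the others, were left out of library sizes, and CPM values were computed from gene counts.

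The 17 embryos were fitted with edgeR 4.0.16 in R 4.3.3 (TMM, filterByExpr with a minimum count of 10, quasi-likelihood F-test, no covariate), with Benjamini-Hochberg adjustment over all genes tested. Relative log expression factors, no low-count filter, block as a term, subsets of embryos and DESeq2 1.42.0 were alternatives. On simulated data made from these embryos (5152 genes tested), the test called 11 of 92 genes given a 2-fold change, 66 of 91 given a 4-fold change and 2 of 4969 left alone. With that many calls the Benjamini-Hochberg cut was looser than in the real fit, where 10 genes were called. Blocks were not simulated either. These shares therefore do not tell how many real changes of such sizes were missed.

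The comparison, the 20 gene lists (6 names not found) and the naming rule were chosen with earlier results of these data known. By the rule, up to 12 called genes are named in each direction by size of change (mean of at least 50 CPM), together with called list members (at least 20 CPM, or all where 5 or fewer were called), 18 fixed genes, and the 10 genes with no earlier count found in the most later embryos. Other genes named were chosen after their values were seen. Promoter sequences were not analysed here. Python 3.11.15 with scipy 1.17.1 made the permutation tests and tables.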

Additional observations from a re-analysis of the deposited data

Results flagged for a closer look

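Within the 2 groups, 58 sets of values of the named genes were examined for an embryo far from the rest, on the log2 scale of CPM + 10, and 13 were found. The rate of about 1 in 20 by chance holds for normally distributed values and not for sets that are mostly 0. The 13 of 58 can therefore not be set against it. Several of the 13 rest on 1 or 2 counts. Among the earlier embryos, that of block 3 at 0 min (91306 gene counts) was far above the others for Y5H2B.3 at 109.5 CPM from 10 counts, and, from 1 count each, for pap-3, med-1, med-2 and tbx-37 at 10.95 CPM. That of block 5 at 0 min (30049 gene counts) was far above the others for pes-10 at 266.2 CPM from 8 counts and for vet-6 at 33.28 CPM from 1 count, and far below them for oma-1 at 199.7 CPM from 6 counts. That of block 4 at 0 min was highest for F56A8.8 at 6.277 CPM from 2 counts and for end-3 at 3.139 CPM from 1 count. Among the later embryos, that of block 1 was far above the others for tbx-37 at 10.8 CPM from 7 counts. That of block 5 at 30 min (23630 gene counts) was far below them for zif-1 at 127.0 CPM from 3 counts and for lsl-1 at 0 CPM.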

How the results depend on the processing

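The 10 genes called higher numbered 7 with block as a term, 10 with relative log expression factors, 8 without the low-count filter, 10 without the fold threshold and 15 without block 3. The number was 0 in block 5 alone, without block 2, without block 5 and with 0 min alone as the earlier group, 5 without block 1, 6 without block 4, 29 with 30 min alone as the later group and 20 with DESeq2. In settings chosen after seeing the data it was 0 with at least 90000 gene counts per embryo, with or without block as a term, and 0 without blocks 1 and 2. Leaving out 1 embryo at a time gave 2 to 22 genes: 22 without the earlier embryo of block 3, 20 without that of block 5 at 0 min, 2 without either earlier embryo of block 2, 3 without that at -50 min, 5 without that at -30 min, and among later embryos 5 without block 1, 3 or 4 without 1 of block 2, 3 without block 3 at 20 min and 6 without block 5 at 30 min. The 0 genes called lower became 4 with 30 min alone, 4 with DESeq2, and 0 to 1 on leaving out 1 embryo, 1 without the embryo at 10 min or that of block 5 at 20 min. Over the alternatives the 10 genes, which were picked in these same embryos, kept the call 157 times, lost it 97 times and never changed sign. With relative log expression factors or DESeq2 no list median changed sign, and the median of all genes was 0.00015 and 0.0040 against 0.025. The cause was not tested.

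Among genes never called, zif-1 (0.03) turned to -0.26 in block 5 alone, -0.20 without block 2, -0.11 with 0 min alone, -0.18 without blocks 1 and 2 and -0.10 to 0.25 without 1 embryo. The value of cyb-2.1 (-0.003) turned to 0.012 with block as a term, 0.53 in block 5 alone, 0.10, 0.030 and 0.041 without block 1, 2 or 3, 0.12 with 0 min alone, 0.046 with relative log expression factors, 0.072 with DESeq2, 0.23 without blocks 1 and 2 and -0.42 to 0.19 without 1 embryo, and vit-2 (2.51) to -0.021 in block 5 alone. Scaling by spike-ins was not run, since 2 embryos held fewer than 100 spike-in counts. Depth limits what 0 counts show in the 4 embryos under 90000 gene counts. In the spike-in and detection tests no alternative crossed the threshold.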
